A study of Mus musculus with 10 samples.

Results

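Foxd3 and L1td1 are 2 of the 24370 genes in a table of expression levels from mouse embryonic stem cells (ESCs). They were chosen on their measured levels in all 5 groups of the study, so the levels and differences of these genes are given as a description, without a test. The study asked whether Usp17le, a gene for a deubiquitinase that is active in the 2-cell embryo, acts through Dux, a transcription factor of the same stage. Polyadenylated RNA was sequenced in 10 libraries, 2 in each group, and each value is in TPM, that is reads divided by gene length and scaled to a total of 1000000 per library. WT cells were untransfected. Usp17le OE cells carried a Usp17le expression plasmid, and Dux KD cells a short hairpin RNA against Dux, each followed by selection with puromycin. In Usp17le OE-Dux KD the hairpin was introduced after the plasmid, and in Dux KD-Usp17le OE the plasmid came after the hairpin. The labels name the J1 line for every group, while the methods name E3 for overexpression and knockdown work, and clones were described for the Usp17l hairpin lines but not for the Dux lines. Neither an empty-plasmid nor a control-hairpin group was analysed here, so every difference from WT also holds transfection and selection. The labels do not say that the 2 libraries of a group were separate cultures, so the SDs and p-values cover only how far these libraries differ, possibly for technical reasons.

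Foxd3 is a forkhead transcription factor that is needed for the epiblast and for the upkeep of pluripotent cells, and later acts in the neural crest. As ESCs leave the naive state it is known to silence naive genes and to restrain Nodal signalling, and its forkhead domain binds DNA while its repression works through corepressors of the Groucho family. L1td1 is an RNA-binding protein that derives from the first open reading frame of a LINE-1 retrotransposon, is abundant in pluripotent cells and germ cells, and is found in cytoplasmic ribonucleoprotein particles together with Lin28a.

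Usp17le and Dux served as the check of the labels. WT libraries held 1.77 and 0.649 TPM of Usp17le, against 28.7 and 35.6 with the plasmid alone, 0.466 and 0.424 with the hairpin alone, and 11.1 and 10.6 for Usp17le OE-Dux KD. Both libraries labelled Dux KD-Usp17le OE stood at 0.941 and 1.63 TPM, inside the WT range, so these libraries are referred to by their label and no direction of a plasmid effect in them is taken for granted. Dux rested on few reads, 5 and 12 for WT, 80 and 75 with the plasmid alone, 4 and 0 with the hairpin alone, 15 and 16 for Usp17le OE-Dux KD, and 6 and 2 for libraries labelled Dux KD-Usp17le OE. In TPM, Dux stood at 0.416 and 0.435 in Usp17le OE-Dux KD. That was below Usp17le OE (1.87 and 2.05) but above both WT libraries (0.118 and 0.259). Depth was 32188285 to 50457228 reads per library. The 10 ESC markers, among them Pou5f1, Nanog and Sox2, were present in every library, at a summed level of 10053 to 12450 TPM. The 12 fibroblast feeder markers summed to 23.4 to 101 TPM, most of it from Acta2 and Thy1. Of the others, Col5a1 had group means of 3.78 to 9.64 TPM, Pdgfrb of 2.47 to 6.85 and Col1a1 of 0.819 to 1.95. Dcn and Lum had group means of 0 to 0.0387 TPM. The sum of the 12 markers was 72.5 to 76.3 TPM in WT and 23.4 to 24.2 TPM with the plasmid alone. Acta2 had a mean of 1.97 TPM with the plasmid alone against 48.1 in WT. Per the methods, J1 cells were grown on gelatin with no feeders and E3 cells on mouse embryonic fibroblast feeders. The part of feeder cells in the results was not tested. In bulk RNA, fewer cells of a type and less RNA per cell cannot be told apart.

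Both genes lie on the forward strand of chromosome 4 (build mm10) with 918 kb between them. L1td1 spans chr4:98726734-98738480, has 4 annotated transcripts with up to 5 exons, and overlaps no other annotated gene. Foxd3 spans chr4:99656299-99658622 and is annotated as a single exon, which shares its strand with a small annotated miRNA gene, Gm23366. The promoter windows are shown because both genes stood above WT in every other group. Each window runs from 250 bases before to 50 bases after the RefSeq start (GRCm38.p6), 5′ to 3′, at chr4:99656049-99656348 for Foxd3 and chr4:98726504-98726803 for L1td1, and capitals mark an E-box, CACGTG.
Foxd3 promoter: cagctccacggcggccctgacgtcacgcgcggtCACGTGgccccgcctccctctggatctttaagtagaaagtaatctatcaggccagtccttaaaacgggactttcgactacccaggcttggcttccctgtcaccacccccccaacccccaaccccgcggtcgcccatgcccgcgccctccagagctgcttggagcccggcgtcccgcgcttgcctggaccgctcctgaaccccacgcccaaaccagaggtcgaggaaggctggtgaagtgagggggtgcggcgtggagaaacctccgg
L1td1 promoter: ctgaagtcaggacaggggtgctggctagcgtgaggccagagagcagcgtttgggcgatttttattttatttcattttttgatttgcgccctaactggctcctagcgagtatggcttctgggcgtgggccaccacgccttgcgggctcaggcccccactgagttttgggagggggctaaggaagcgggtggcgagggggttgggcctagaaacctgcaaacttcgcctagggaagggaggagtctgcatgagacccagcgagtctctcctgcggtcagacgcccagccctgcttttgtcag
The Foxd3 window held 65.7% G and C and 25 CpG dinucleotides, more CpG than 81.6% of 32851 RefSeq promoter windows of this length. The L1td1 window held 58.7% G and C and 14 CpG, more than 63.7% of windows, against medians of 52.7% and 7 CpG over all. The E-box, the palindrome that Myc family proteins bind, was found in Foxd3 at 217 bases before the start and not in L1td1, and 7.15% of all windows hold it. Searched on both strands, neither window held the octamer ATGCAAAT (1.74% of windows), the DUX motif GATTNAATC (0.268%), the Zscan4 motif TGCACAC (4.40%), the forkhead motif TGTTTAC (3.65%), the TATA motif TATAAA (13.6%) or the GC box GGGCGG (35.7%). A match, or its absence, describes these letters in this window only.

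Foxd3 was nearly silent in WT and present in every other group, with 2 distinct levels. It stood at 0.362 and 0.442 TPM in WT, which rest on 18 and 24 reads. Usp17le OE libraries held 26.8 and 23.1 TPM (1226 and 1085 reads). Dux KD libraries held 4.99 and 5.48 TPM (229 and 325 reads). The lowest Usp17le OE library thus lay above the highest Dux KD library, and both groups lay above WT with no overlap. Usp17le OE-Dux KD held 24.9 and 26.8 TPM, both inside the range of Usp17le OE. The libraries labelled Dux KD-Usp17le OE held 5.10 and 3.98 TPM, which overlaps the range of Dux KD. Group means were 0.402 ± 0.0563, 25.0 ± 2.63, 5.23 ± 0.345, 25.9 ± 1.34 and 4.54 ± 0.789 TPM (SD, n = 2) in the order WT, Usp17le OE, Dux KD, Usp17le OE-Dux KD and Dux KD-Usp17le OE. In that order the 4 treated groups stood at 62.1, 13.0, 64.3 and 11.3 times the WT mean. Ordered by level, the groups therefore formed WT, then the pair with the hairpin first, then the pair with the plasmid first, and neighbours inside each pair did not differ beyond their spread. Foxd3 lay above 43.1% and 44.3% of all genes in WT and above 81.9% and 79.4% in Usp17le OE.

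L1td1 was already expressed in WT and stood at a separate, higher level in each of the other groups. WT libraries held 51.2 and 55.9 TPM, Usp17le OE libraries 196 and 203 TPM, and Dux KD libraries 324 and 328 TPM. The Dux KD libraries were thus the higher of the single treatments, the reverse of Foxd3. Usp17le OE-Dux KD held the highest values, 427 and 425 TPM. The libraries labelled Dux KD-Usp17le OE held 249 and 267 TPM, below Dux KD and above Usp17le OE. No groups overlapped, and each step between neighbours in the order exceeded the sum of their SDs. The share of all genes whose 5 groups separate in this way is not given here, so the separation is not read as particular to L1td1. Differences from WT were common in this table, so being apart from WT is not particular to L1td1 or Foxd3. Of all genes tested, 45.5% were called higher and 20.9% lower in Usp17le OE against WT (limma, adjusted p under 0.05). In Dux KD against WT these shares were 51.4% and 10.7%. The means of L1td1 were 53.6 ± 3.30 TPM for WT, 200 ± 5.39 for Usp17le OE, 258 ± 12.5 for Dux KD-Usp17le OE, 326 ± 2.83 for Dux KD and 426 ± 1.79 for Usp17le OE-Dux KD (SD, n = 2). The ratios to WT were 3.72, 4.82, 6.09 and 7.95 in the same order. L1td1 lay above 90.1% and 90.8% of genes in WT and above 98.7% in both Usp17le OE-Dux KD libraries.

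**Figure D1:**
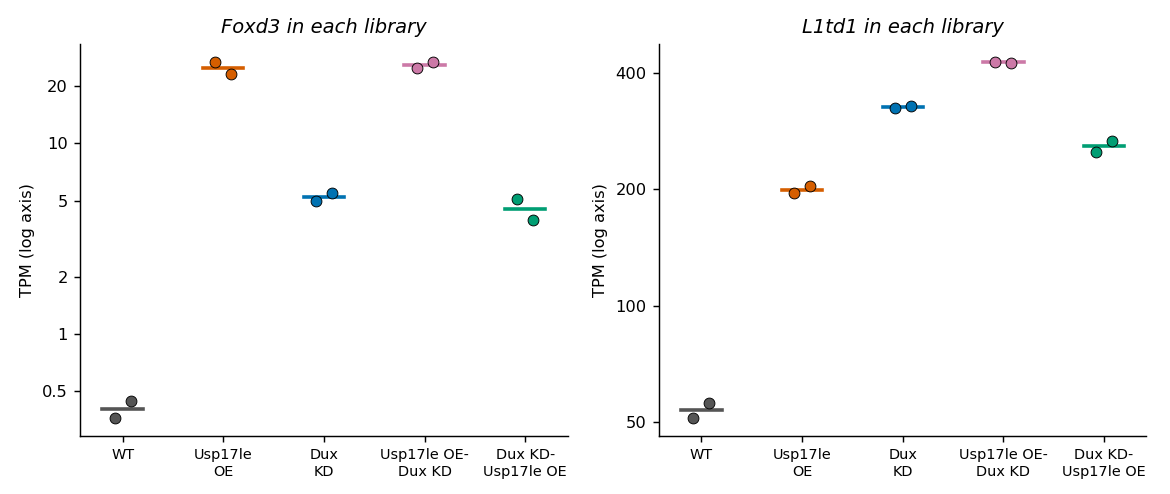
Level of Foxd3 (left) and L1td1 (right) in TPM on a log axis, with a point for each of the 2 libraries of a group and a bar at the group mean. Foxd3 falls into WT near 0.402, a pair of groups at 4.54 and 5.23 and a pair at 25.0 and 25.9 TPM, whereas L1td1 steps from 53.6 to 426 TPM with no overlap between groups.

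On the scale of log2(TPM + 0.1), the difference of Foxd3 from WT was 5.64 ± 0.15 (SE) in Usp17le OE and 3.41 ± 0.15 in Dux KD. For L1td1 the same differences were 1.90 ± 0.05 and 2.60 ± 0.05. Among the 14706 genes kept for testing, ordered from the highest difference, Foxd3 had rank 5 for the difference from WT of Usp17le OE, rank 3 for that of Dux KD, rank 1 for that of Usp17le OE-Dux KD and rank 13 for that of Dux KD-Usp17le OE. L1td1 had ranks 793, 10, 61 and 32 in these comparisons. These ranks describe the choice of the genes, and the comparisons share the WT libraries. Since TPM values are shares of a fixed total, the median gene moved too, by 0.26, 0.38, 0.56 and 0.29 (log2) in these 4 comparisons. After median-ratio scaling of the libraries, which removes this shift, the differences of Foxd3 were 5.43 and 3.07 in the single treatments, and those of L1td1 were 1.63 and 2.20.

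Where the hairpin was added to cells with the plasmid, the genes differed unequally. Usp17le differed as well, with 28.7 and 35.6 TPM in Usp17le OE against 10.6 and 11.1 in Usp17le OE-Dux KD. The part of that difference in the levels of the members was not tested. Between Usp17le OE-Dux KD and Usp17le OE, Foxd3 differed by 0.05 ± 0.15 (log2), and by -0.25 after scaling, so its direction depends on the scaling and the groups overlapped in TPM. L1td1 was 1.09 ± 0.05 higher, or 0.79 after scaling, against a median shift of 0.29 over all genes. The hairpin difference with the plasmid minus that without it was -3.36 ± 0.21 for Foxd3 and -1.51 ± 0.08 for L1td1 (log2). These differences of effects include WT and are descriptions.

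Between the libraries labelled Dux KD-Usp17le OE and Dux KD, Foxd3 differed by -0.21 ± 0.15 and L1td1 by -0.34 ± 0.05, or by -0.12 and -0.24 after scaling, with a median shift of -0.10. Usp17le itself was inside its WT range in the former, at 0.941 and 1.63 TPM, though above Dux KD, at 0.424 and 0.466 TPM. A plasmid effect is therefore not read from this comparison. Between the doubly treated groups, which differ in the order of introduction, Dux KD-Usp17le OE stood below Usp17le OE-Dux KD in Foxd3 (log2 difference -2.49 ± 0.15) and in L1td1 (-0.72 ± 0.05). The scaled values were -2.23 and -0.46, and Usp17le differed between these groups as well, 10.6 and 11.1 against 0.941 and 1.63 TPM.

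The ratio of L1td1 to Foxd3, both in TPM and so per length, shows how far the patterns part. WT libraries had ratios of 141 and 126, Usp17le OE libraries 7.29 and 8.80, and Dux KD libraries 65.0 and 59.9. Those of Usp17le OE-Dux KD were 17.1 and 15.8, and those labelled Dux KD-Usp17le OE had 48.9 and 67.1. L1td1 remained the more abundant in all 10 libraries, and only the groups Dux KD and Dux KD-Usp17le OE overlapped in this ratio.

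**Figure D2:**
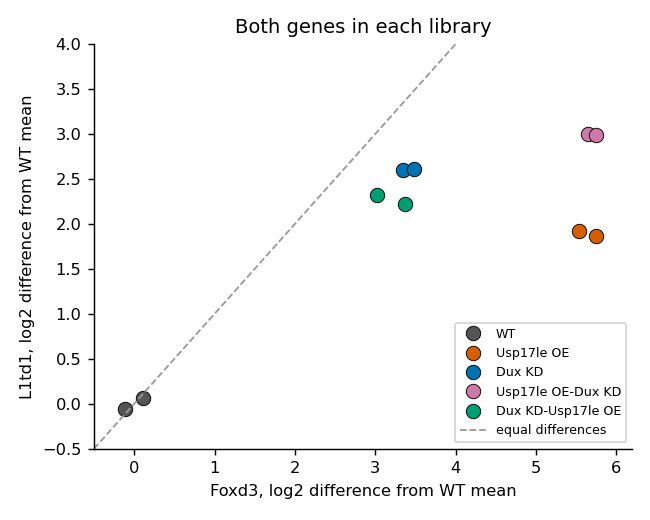
Difference of each library from the WT mean in log2(TPM + 0.1), Foxd3 on the horizontal and L1td1 on the vertical axis, with the dashed line at equal differences. All treated libraries lie below the line, Dux KD lies at 3.41 and 2.60 on average, and Usp17le OE lies farther right and lower, at 5.64 and 1.90.

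To find genes with like patterns, each gene was centred on its mean over the 10 libraries and compared with the member by the root mean square (RMS) difference in log2 units, among 14705 genes. Nearest to Foxd3, whose own RMS about its mean was 2.09, were Myc (0.586), Lrrc14 (0.672), Gm13128 (0.681), Mat2a (0.706) and Zfp936 (0.808). Myc, a transcription factor of growth and of ESC self-renewal, went from 1.16 and 1.20 TPM in WT to 29.2 and 34.6 with the plasmid alone and to 7.46 and 9.54 with the hairpin alone. It thus had the same order of WT, Dux KD and Usp17le OE as Foxd3, a likeness for which it was picked. In Usp17le OE-Dux KD, Myc held 18.9 and 20.1 TPM, below Usp17le OE, whereas Foxd3 overlapped between these groups. Mat2a, which makes the methyl donor S-adenosylmethionine, went from 12.7 and 15.0 TPM in WT to 245 and 266 with the plasmid alone and to 60.4 and 68.1 with the hairpin alone. It too was lower in Usp17le OE-Dux KD than in Usp17le OE, at 166 and 156 TPM. Nearest to L1td1, whose own RMS was 1.04, were Mycn (0.219), Trim8 (0.241), Zc3h4 (0.260), Zbtb45 (0.269) and Tns3 (0.292). Mycn, a Myc paralogue, stood at 15.8 and 16.2 TPM in WT, 42.2 and 39.5 with the plasmid alone, 84.8 and 85.9 with the hairpin alone, and 95.0 and 92.7 for Usp17le OE-Dux KD. Its libraries labelled Dux KD-Usp17le OE held 74.6 and 73.2 TPM, the order of groups seen in L1td1. L1td1 itself was at rank 299 among the genes nearest to Foxd3, and Foxd3 was at rank 13288 among those nearest to L1td1. With every gene also divided by its SD, 0 of the 5 named genes stayed nearest for either member, and after scaling 4 of 5 did for each.

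**Figure D3:**
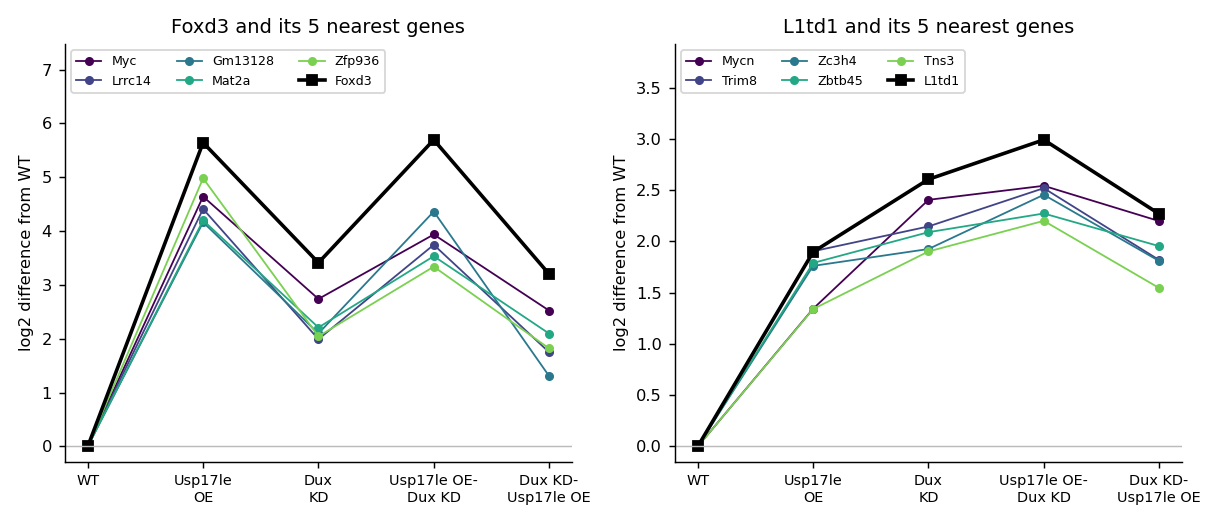
Mean log2 difference from WT in the 5 groups for Foxd3 (left) and L1td1 (right) in black with squares, and for the 5 genes with the smallest RMS difference from each. Foxd3 and its nearest genes are higher in Usp17le OE and Usp17le OE-Dux KD than in Dux KD and Dux KD-Usp17le OE, while L1td1 and its nearest genes peak in Usp17le OE-Dux KD.

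Most neighbours differed from WT by less than L1td1 and Foxd3, which were chosen on their levels. The window ran from 5 kept genes before L1td1, beginning at Hook1, to 5 kept genes after Foxd3, ending at Cachd1, and held 15 kept genes besides the members, of 75 annotated. Pgm1 was left out, since 2 genes have exchanged this symbol between annotations. In Usp17le OE against WT, 10 of the 15 passed the test as higher and 5 did not pass (limma, adjusted p under 0.05), or 7 were higher and 1 lower after scaling. Of all genes tested in this comparison 45.5% were called higher and 20.9% lower, or 33.0% and 33.0% after scaling. In Dux KD against WT, 3 neighbours were higher and 2 lower, or 3 and 6 after scaling, where 51.4% of all genes were higher and 10.7% lower, or 28.8% and 25.3% after scaling. The largest difference in Usp17le OE against WT was 1.86 ± 0.26 for Kank4os (limma adjusted p = 6.1e-05), an antisense gene inside Kank4 whose reads were not separated by strand from it. Efcab7 was next at 1.34 ± 0.13 (limma adjusted p = 1.8e-06), a gene that lies within Itgb3bp on the opposite strand and has the same limit. In Dux KD against WT, Kank4, next to L1td1, rose by 1.53 ± 0.11 (limma adjusted p = 1.2e-07) and Itgb3bp fell by 0.78 ± 0.08 (limma adjusted p = 2.7e-06). Between the members lie 23 annotated genes, of which 5 were kept. The difference of Kank4os in Usp17le OE lay within its SE of that of L1td1, 1.90, and all other neighbours lay below both members in both comparisons. Because the members were chosen on their levels, this describes the choice and is not a result about the locus.

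**Figure D4:**
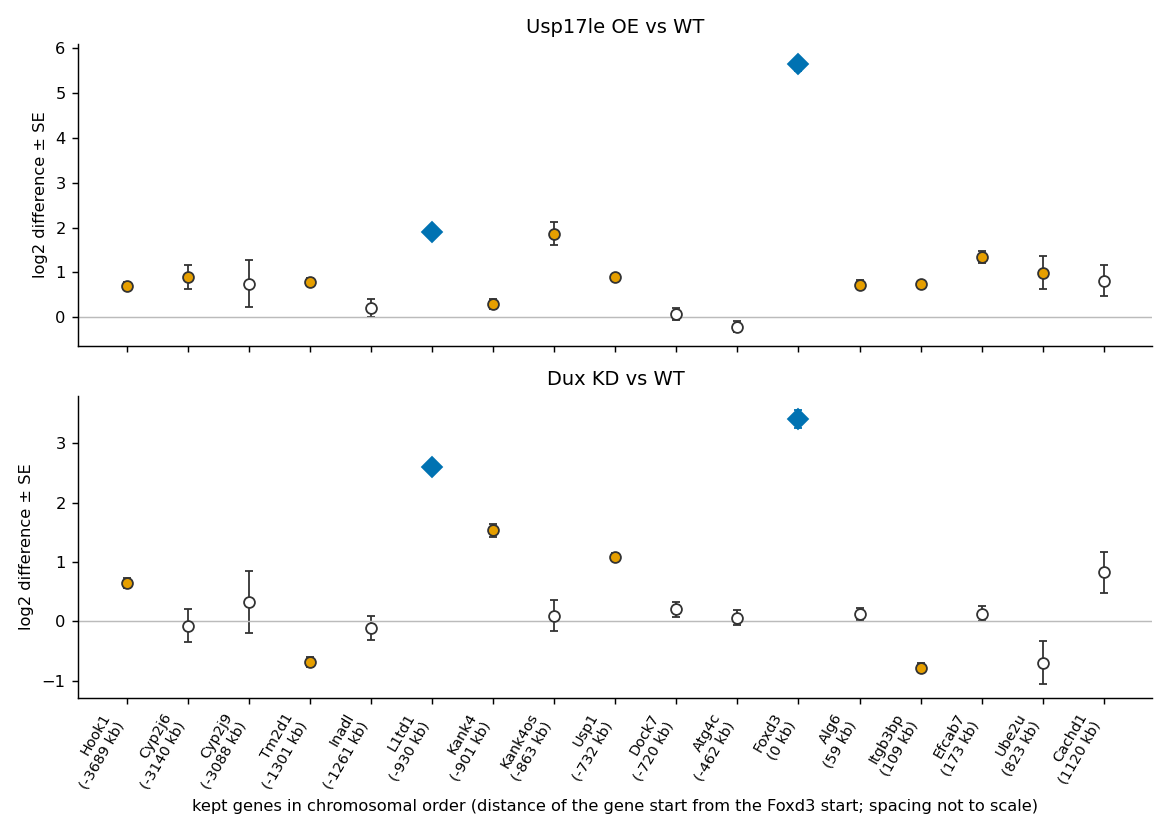
Log2 difference from WT, with SE bars, of the kept genes around L1td1 and Foxd3 in chromosomal order, for Usp17le OE (top) and Dux KD (bottom), where filled circles passed the test, open circles did not, and diamonds are the members, which were not tested. Foxd3 stands at 5.64 and 3.41, and the largest neighbours at 1.86 (Kank4os) and 1.53 (Kank4).

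The nearest relatives of Foxd3 did not reach its level. Foxd1, Foxd2 and Foxd4, forkhead factors of the same subfamily, stayed under 1 TPM in all libraries, with highest values of 0.857, 0.348 and 0.309 TPM, and Foxd2 had no read in either library labelled Dux KD-Usp17le OE. Of 43 other forkhead genes 26 passed the filter on low values, and Foxb1 and Foxi1 had no read in any library. In Usp17le OE against WT, 7 of the 26 were higher and 9 lower, or 3 and 13 of 23 after scaling, with a median of -0.11 against 0.26 over all genes. Among all genes tested, 45.5% were higher and 20.9% lower, or 33.0% and 33.0% after scaling. Foxa1, a factor of endoderm, rose by 2.06 ± 0.35 (limma adjusted p = 0.00019), to 2.67 and 2.51 TPM from 0.630 and 0.466. Foxc2, a factor of mesoderm, fell by 2.81 ± 0.37 (limma adjusted p = 2.6e-05). In Dux KD, compared with WT, 10 were higher and 2 lower, or 7 and 4 after scaling, with Foxp4 up by 1.38 ± 0.09 (limma adjusted p = 9.5e-08) while Foxi3 fell by 2.96 ± 0.57 (limma adjusted p = 0.0006). The shares over all genes in Dux KD were 51.4% higher and 10.7% lower, or 28.8% and 25.3% after scaling. None of the 26 had a difference as large as that of Foxd3 in either comparison. Foxd3 was chosen on its levels and had ranks 5 and 3 among 14706 genes, so few genes of any kind could exceed it.

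Some genes of the neural crest, where Foxd3 also acts, were higher. Of 16 listed genes 9 passed the filter, and 6 were higher and 3 did not pass in Usp17le OE against WT, or 6 were higher and 1 lower after scaling. Msx1, among the 6, passed the filter only through its level in Usp17le OE, so it had to differ, and of the other 8 genes 5 were higher. The shares over all genes were 45.5% higher and 20.9% lower, or 33.0% and 33.0% after scaling. Msx2 rose by 2.83 ± 0.56 (limma adjusted p = 0.0024) and Erbb3, a neuregulin receptor, by 2.25 ± 0.10 (limma adjusted p = 2.8e-09). With the hairpin alone, Erbb3 and Mitf were higher and 7 did not pass, or 2 were higher and 1 lower after scaling. For all genes tested, 51.4% were higher and 10.7% lower there, or 28.8% and 25.3% after scaling. The defining factors Sox10 and Pax3 were at means of at most 0.694 and 0.0273 TPM in any group, and Tfap2b had no read. The summed level of the list was 14.2 to 16.4 TPM in WT and 44.8 to 48.3 TPM in Usp17le OE, and its part in the Foxd3 level was not tested.

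Around Foxd3 in the pluripotent state, 25 genes of the passage from naive to formative and primed epiblast were followed, 24 of which passed the filter. In Usp17le OE against WT, 13 were higher and 4 lower, or 12 and 8 after scaling, with a median of 0.45 against 0.26 over all genes. Among all genes, 45.5% were higher and 20.9% lower, or 33.0% and 33.0% after scaling. Zfp42, a marker of the naive state, rose by 1.85 ± 0.05 (limma adjusted p = 1.9e-11), Grhl2, an epithelial factor, by 1.77 ± 0.16 (limma adjusted p = 1.1e-06), and Nanog by 1.50 ± 0.04 (limma adjusted p = 7.0e-11). Zic2 went from a mean of 4.69 TPM in WT to 14.3 in Usp17le OE, Otx2 from 6.73 to 10.2 and Dnmt3b from 15.7 to 26.3. Pou3f1, a formative factor, fell by 1.05 ± 0.26 (limma adjusted p = 0.0032), and Lef1 went from a mean of 1.74 to 0.930 TPM. After Dux KD alone, 20 were higher and 4 did not pass, or 17 were higher and 1 lower after scaling, led by Tcl1 (1.68 ± 0.08), Zic2 (1.49 ± 0.09) and Klf4 (1.49 ± 0.05). Of all genes, 51.4% were higher in Dux KD against WT, or 28.8% after scaling. When the hairpin followed the plasmid, 21 were higher than in Usp17le OE and 3 did not pass, or 16 were higher and 3 lower after scaling, where 45.7% of all genes were higher and 18.6% lower, or 29.7% and 30.7% after scaling. Fgf5, a primed marker, had no read in WT and Usp17le OE.

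In the Nodal pathway, which Foxd3 is known to restrain, Nodal and its inhibitor Lefty1 moved in opposite directions in Usp17le OE against WT and the same way in Dux KD against WT. Of 19 genes 18 were tested, and 5 were higher and 6 lower in Usp17le OE against WT, or 4 and 10 after scaling. Nodal, the ligand, rose by 3.60 ± 0.08 (limma adjusted p = 4.5e-12), from a mean of 12.7 to 155 TPM. Lefty1, an inhibitor of Nodal, fell by 1.74 ± 0.20 (limma adjusted p = 1.6e-05). Under the hairpin alone, 12 were higher and 6 did not pass, or 10 were higher and 2 lower after scaling, and the inhibitors led, with Lefty2 up by 2.44 ± 0.09 (limma adjusted p = 3.7e-09) and Lefty1 up by 1.86 ± 0.20 (limma adjusted p = 9.3e-06). The share of all genes that were higher in Dux KD against WT was 51.4%, or 28.8% after scaling. Nodal rose there as well, by 0.91 ± 0.08 (limma adjusted p = 6.6e-07), or by 0.51 after scaling. With the hairpin after the plasmid, 14 were higher and 3 lower than in Usp17le OE, or 10 and 4 after scaling. Of all genes, 45.7% were higher and 18.6% lower in that comparison, or 29.7% and 30.7% after scaling. There Lefty2 rose by 2.82 ± 0.09 (limma adjusted p = 4.0e-10) and Lefty1 by 2.56 ± 0.20 (limma adjusted p = 7.0e-07). Nodal fell by 1.18 ± 0.08 (limma adjusted p = 7.0e-08). Foxd3 differed by 0.05 ± 0.15 in this comparison, or by -0.25 after scaling, and its part in these differences was not tested. Cer1, another inhibitor, had no read in any library.

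Corepressors and remodelers tied to Foxd3 numbered 15, of which 14 were tested. In Usp17le OE against WT, 5 were higher and 5 lower, or 4 and 9 after scaling. The shares of all genes were 45.5% higher and 20.9% lower, or 33.0% and 33.0% after scaling. The Groucho family split, with Tle4 up by 1.98 ± 0.07 (limma adjusted p = 5.1e-10) and Tle3 down by 0.92 ± 0.06 (limma adjusted p = 8.1e-08). Smarca4, the ATPase of the BAF remodeler, fell by 0.64 ± 0.07 (limma adjusted p = 2.8e-06). In Dux KD against WT, 14 of 14 were higher, or 11 higher and 2 lower after scaling, led by Arid1a (1.44 ± 0.06) and Tle4 (1.24 ± 0.07). Among all genes 51.4% were higher in that comparison, or 28.8% after scaling, and the median gene moved by 0.38. With the hairpin after the plasmid, 13 were higher and 1 lower, or 10 and 1 after scaling. For all genes these shares were 45.7% and 18.6%, or 29.7% and 30.7% after scaling.

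For L1td1, 17 RNA-binding proteins of ribonucleoprotein particles were followed, all tested. In Usp17le OE against WT, 6 were higher and 7 lower, or 5 and 11 after scaling. All genes together had 45.5% higher and 20.9% lower, or 33.0% and 33.0% after scaling. Trim71, a translational repressor, rose by 1.44 ± 0.09 (limma adjusted p = 5.2e-08), and Mov10, a helicase that restricts LINE-1, fell by 1.19 ± 0.07 (limma adjusted p = 2.4e-08). Lin28a, the partner of L1td1, fell by 0.24 ± 0.06 (limma adjusted p = 0.0022), from a mean of 69.2 to 58.7 TPM. With Dux KD alone, 16 of 17 were higher, or 14 were higher and 1 lower after scaling, among them Trim71 (1.14 ± 0.09), Igf2bp3 (1.09 ± 0.07) and Mov10 (1.02 ± 0.07). The share over all genes was 51.4% higher, or 28.8% after scaling. With the hairpin after the plasmid, 16 were higher and 1 lower, or 11 and 1 after scaling, and Mov10 rose by 1.75 ± 0.07 (limma adjusted p = 1.5e-09). Of all genes tested there, 45.7% were higher and 18.6% lower, or 29.7% and 30.7% after scaling.

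Most genes that silence LINE-1, from which L1td1 derives, were higher than WT in both single treatments, as were many genes of the table. Of 28, all tested, 22 were higher and 3 lower in Usp17le OE against WT, or 17 and 6 after scaling, with a median of 0.56 against 0.26 over all genes. The shares over all genes were 45.5% higher and 20.9% lower, or 33.0% and 33.0% after scaling. Tex19.1, which restrains LINE-1 in mouse ESCs and germ cells, rose by 2.68 ± 0.07 (limma adjusted p = 3.7e-11), from a mean of 72.5 to 467 TPM. Ehmt2, a histone H3 lysine methyltransferase, fell by 1.46 ± 0.06 (limma adjusted p = 7.8e-10). For Dux KD against WT, 27 were higher and 1 did not pass, or 22 were higher and 1 lower after scaling, led by Zcchc3 (1.49 ± 0.09) and Adar (1.28 ± 0.10). Over all genes 51.4% were higher there, or 28.8% after scaling. With the hairpin after the plasmid, 19 were higher and 2 lower, or 14 and 7 after scaling, and Ehmt2 rose by 1.68 ± 0.06 (limma adjusted p = 4.3e-10) while Tex19.1 fell by 0.85 ± 0.07 (limma adjusted p = 6.4e-07). Among all genes 45.7% were higher and 18.6% lower in this last comparison, or 29.7% and 30.7% after scaling.

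**Figure D5:**
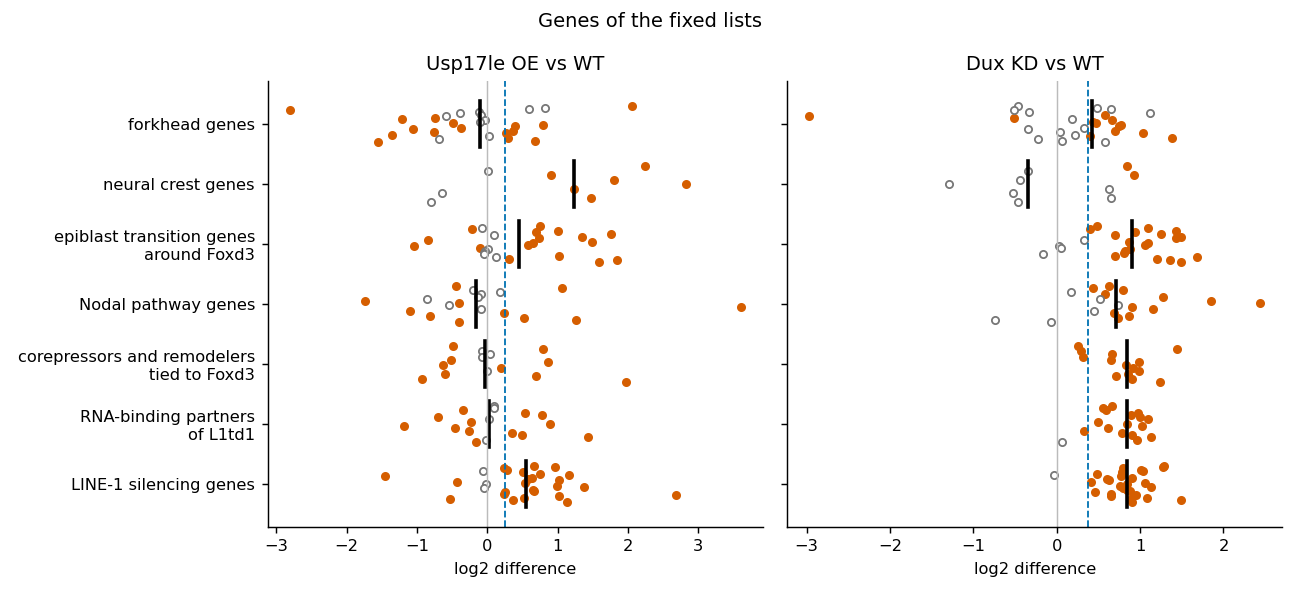
Log2 difference from WT of the genes in 7 lists around Foxd3 and L1td1, for Usp17le OE (left) and Dux KD (right), where filled points passed the test, open points did not, black bars are list medians and the dashed line is the median of all genes, 0.26 and 0.38. Points lie on both sides of 0 in Usp17le OE, and mostly above 0 in Dux KD.

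The libraries labelled Dux KD-Usp17le OE were compared with each of the other hairpin groups. Relative to Dux KD, 2.88% of all genes were higher and 8.3% lower, or 3.42% and 1.97% after scaling. There 9 of 24 epiblast genes were lower and 15 did not pass, or 1 was lower after scaling. Of the 28 LINE-1 silencing genes 5 were lower and 23 did not pass, or 2 were lower after scaling. The number of genes called over the whole table, 1644 in this comparison, ran from 60 to 2163 as single libraries were left out, with 60 and 140 without the first or the second library labelled Dux KD-Usp17le OE and 138 without the second Dux KD library. Against Usp17le OE-Dux KD, 7.97% of all genes were higher and 37.4% lower, or 23.6% and 15.7% after scaling. Of the epiblast genes 1 was higher and 21 lower, or 2 and 13 after scaling, with Tbx3, a naive factor, at -1.24 ± 0.05 (limma adjusted p = 2.5e-08) and Nanog at -1.11 ± 0.04 (limma adjusted p = 1.9e-08). Nodal was lower too (-1.56 ± 0.08, limma adjusted p = 8.0e-08). Of the LINE-1 silencing genes 1 was higher and 20 lower, or 6 and 10 after scaling.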

How the data were processed

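The authors deposited TPM values per gene and library together with gene lengths. The submitters' processing notes and the methods name Trim Galore, HISAT2 with build mm10 and featureCounts, with versions and annotation release not given in the sources used here. The authors named DESeq2 for their own comparisons, and no column of those was used. Strand was not given, so overlapping genes on opposite strands were not separated. Whole reads were recovered from TPM and length for 100% of values (tolerance 0.01). Of the gene symbols, 27 had been turned into dates and are not named.

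The members, the gene lists and the rule for naming genes were chosen with earlier results of these data known. A gene was kept if 2 or more libraries had 0.5 TPM or more (14706 genes, or 14659 after scaling). Values were analysed as log2(TPM + 0.1), and fold changes on that scale understate changes of low genes. The 10 libraries entered a single limma model (limma 3.58.1, with statmod 1.5.0 under R 4.3.3) with group means, 5 residual degrees of freedom and the trend and robust options. Two-sided p-values were adjusted by Benjamini-Hochberg within each comparison, over every gene tested. A gene was called at an adjusted p under 0.05. The script was tested on simulated data. Errors are SEs of the fit for log2 differences and SDs for TPM levels.

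Named genes were the members, the 5 nearest of each by RMS difference, neighbours that bound the window or had the largest difference in a direction, the Foxd relatives, and up to 4 called genes with the largest difference in each direction per list, with those at 0. Lin28a and the examples of zero or low genes Sox10, Pax3 and Fgf5 were singled out after their values were seen. Alternatives covered the scaling, the pseudocount, the filter, the options of the fit, each library left out and the replicate block. Gene positions came from GENCODE M21 on mm10 and promoter windows from RefSeq.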

Additional observations from a re-analysis of the deposited data

Results flagged for a closer look

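L1td1 moved in opposite directions in the comparisons in which the plasmid was the added step. It was higher in Usp17le OE than in WT (log2 difference 1.90, in every library) and lower in both libraries labelled Dux KD-Usp17le OE than in Dux KD (-0.34, in every library). The difference between these effects was not tested, because the gene was chosen on these values. Usp17le was at 0.941 and 1.63 TPM in both libraries labelled Dux KD-Usp17le OE, against 28.7 and 35.6 TPM in Usp17le OE.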

How the results depend on the processing

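The differences rest on 2 libraries a group and on TPM, so a shift in abundant genes moves all values, and low levels such as Foxd3 in WT rest on few reads. After scaling, Foxd3 differed from WT by 5.43 with the plasmid and 3.07 with the hairpin, by -0.25 with the hairpin added to the plasmid, where the sign turned, and by -2.23 between the doubly treated groups, and L1td1 by 1.63, 2.20, 0.79, -0.24 and -0.46 in the 5 comparisons. Limma voom on the recovered reads, chosen after seeing the data, gave -0.24 (again the turned sign) and -2.23 for Foxd3 and 1.63, 2.20, 0.79, -0.24 and -0.46 for L1td1. A pseudocount of 1 gave 4.21, 2.15 and -2.28 for Foxd3 in the first, second and last comparison. Genes called between Dux KD-Usp17le OE and Dux KD numbered 1644, but 791 after scaling, 1007 with no filter and 30 without the trend and robust options, and leaving out 1 library gave 60 to 2163, with 138 without Dux KD replicate 2, 60 without Dux KD-Usp17le OE replicate 1 and 140 without its replicate 2. The list counts of that comparison rest on these calls. The cause of these shifts was not tested.

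With 1 library left out, Foxd3 ranged over 5.53 to 5.76, 3.30 to 3.53, -0.054 to 0.16, -0.38 to -0.036 and -2.67 to -2.32 in the 5 comparisons, in the order Usp17le OE and Dux KD against WT, the hairpin added, the plasmid added and the doubly treated groups. The value of -0.054, with the sign turned, came without Usp17le OE replicate 2. L1td1 ranged over 1.83 to 1.96, 2.54 to 2.67, 1.07 to 1.12, -0.39 to -0.29 and -0.77 to -0.67. The 8 libraries outside Dux KD-Usp17le OE, an alternative added after seeing the data, moved no list count by more than 1 gene, and by construction cannot move the member differences. Libraries with the same replicate number did not deviate together (r of -0.05 to 0.05 across genes), and with the replicate block, which cannot move differences of group means in this balanced layout (5.64 for Foxd3 and 1.90 for L1td1 in Usp17le OE against WT), genes called numbered 1630 to 9778 over the 5 comparisons, each within 1.5 times the count without it. The planned count tools were not run, since the table holds no deposited counts.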
